A study of Mus musculus with 15 samples.

Results

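The 8 mature miRNAs described here are markers of inflammatory signalling and of leukocytes. mmu-miR-146a-5p, mmu-miR-146b-5p and mmu-miR-155-5p are grouped here under the name NF-κB-induced, with miR-146b-5p placed there as the relative of miR-146a-5p. mmu-miR-142a-3p, mmu-miR-142a-5p, mmu-miR-223-3p, mmu-miR-150-5p and mmu-miR-342-3p are abundant in blood cells. The species prefix is left out from here on. They were chosen by name, not by their values, from the 1915 mature miRNAs of the table, and all 8 were found in it. The libraries were small RNA libraries of isolated pancreatic acini, the enzyme-secreting units of the exocrine pancreas, from C57BL/6 mice aged 7 to 8 weeks. There were 15 libraries in 5 groups of 3: control acini that received no agent, acini given caerulein at 100 nM, the dose labelled pathological, or at 100 pM, the dose labelled physiological, and acini given TLC-S at 250 uM or at 62.5 uM. All groups shared strain, age range and tissue. No label ties the groups to a shared preparation or states how long exposure lasted. Values for the 4 treated groups are given in the order of this list. The comparisons asked whether miRNAs of inflammation or of leukocytes differ between acini exposed to either agent and control acini.

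Caerulein is an analogue of the gut hormone cholecystokinin that drives enzyme secretion and, in excess, injures acinar cells. TLC-S, taurolithocholic acid 3-sulfate, is a bile acid used to model biliary pancreatitis. In immune and epithelial cells, NF-κB switches on the genes of miR-146a and miR-155 after Toll-like receptor or cytokine signals. miR-146a and miR-146b then target the adaptors IRAK1 and TRAF6 and so dampen the same pathway, whereas miR-155 targets brakes on it such as SHIP1 and SOCS1. The leukocyte miRNAs mark lineage: miR-142 is made by nearly all haematopoietic cells, miR-223 by granulocytes and monocytes, and miR-150 by mature lymphocytes. miR-342 is abundant in lymphoid and myeloid cells but is not restricted to them.

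The mature sequences are shown because the seed, which pairs with target mRNAs, divides the miRNAs into families, and because miR-146a-5p and miR-146b-5p are alike enough for reads to need separating at their 3′ ends. The sequences are from RefSeq (GRCm38.p6), in which 7 of the 8 were matched; miR-150-5p is named only. Capitals mark the seed, bases 2 to 8 from the 5′ end.
miR-146a-5p: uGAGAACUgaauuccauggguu
miR-146b-5p: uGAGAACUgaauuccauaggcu
miR-155-5p: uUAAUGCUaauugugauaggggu
miR-142a-5p: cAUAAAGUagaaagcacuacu
miR-142a-3p: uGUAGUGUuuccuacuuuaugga
miR-223-3p: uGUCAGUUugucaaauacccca
miR-342-3p: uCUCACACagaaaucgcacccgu
The 7 sequences held 6 distinct seeds, and only the miR-146 pair shared one. With positions counted from the 5′ end and miR-146a-5p as the reference, the pair was identical over its first 17 bases and differed by G18A and U21C. The arms of miR-142a come from opposite sides of 1 hairpin and carry different seeds.

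The hairpins lie apart in the genome (GRCm38, GENCODE M21). The gene of miR-146a is on chromosome 11 at 43374397 to 43374461, minus strand, between genes. That of miR-146b is on chromosome 19 at 46342762 to 46342870, plus strand, in an intron of Mfsd13a. miR-155 lies in an exon of the non-coding gene Mir155hg on chromosome 16 at 84714140 to 84714204, plus strand. The miR-142a hairpin is on chromosome 11 at 87756864 to 87756927, plus strand, in an intron of Mir142hg and opposite Mir142b on the other strand. miR-223 lies in an exon of F630028O10Rik on chromosome X at 96242817 to 96242926, plus strand. miR-150 is intergenic on chromosome 7 at 45121757 to 45121821, plus strand, and miR-342 lies in an intron of Evl on chromosome 12 at 108658620 to 108658718, plus strand.

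Totals ranged from 535473 counts (caerulein 100 nM, replicate 2) to 5087728 counts (caerulein 100 nM, replicate 3), so that 3 counts, the limit that a count of 0 allows, corresponded to between 0.565 and 5.25 CPM (counts scaled to a common library size by the TMM method). The 8 acinar markers of the miR-216, miR-217 and miR-148a hairpins all had counts and took 27.2% to 58.2% of each library. Islet markers took 5.86% to 14.9%, mesenchymal markers 0.867% to 1.98%, endothelial markers (both arms of miR-126a) 0.363% to 0.839% and erythrocyte markers 0.00657% to 0.0187%. Control replicate 3 had the highest acinar share (58.2%, against 27.2% and 33.9% in the other control libraries) and the lowest islet share. Shares of a library are tied, since a rise of any lowers the rest. The acinar share of control replicate 3 was mostly 1 marker, miR-148a-3p, which held 1438688 of the 1658286 acinar counts, so it does not describe the 8 markers alike. The next acinar shares were 52.4% in TLC-S 250 uM replicate 3 and 49.3% and 48.4% in caerulein 100 pM replicates 2 and 3. The labels number the libraries but do not say that they came from separate animals, and the protocol speaks of RNA pooled from independent preparations, so a p-value here reflects only how much these libraries vary, and that variation may be technical.

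The miR-146 pair held most of the counts of the 8 miRNAs. miR-146a-5p averaged 1202 ± 540 CPM (SD, n = 15 libraries) and ranked 52 among all mature miRNAs. miR-146b-5p averaged 175 ± 35.0 CPM and miR-342-3p 28.2 ± 9.03 CPM. miR-150-5p averaged 48.8 CPM, within 31.5 to 92.1 CPM. The others were close to the detection limit: miR-155-5p averaged 5.10 ± 3.16 CPM, miR-142a-5p 4.07 ± 2.36 CPM, miR-223-3p 3.82 ± 1.67 CPM and miR-142a-3p 1.19 ± 1.41 CPM. The neighbours miR-146a-5p and miR-146b-5p kept their order in 15 of 15 libraries, as did miR-146b-5p and miR-150-5p, and miR-342-3p and miR-155-5p. miR-150-5p was above miR-342-3p in 14 of 15. miR-155-5p, miR-142a-5p and miR-223-3p could not be ordered, since miR-155-5p was above miR-142a-5p in 6 of 15 libraries and miR-142a-5p above miR-223-3p in 8 of 15. These levels compare mature miRNAs of similar length, but ligation and amplification can favour some sequences over others.

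The 5 leukocyte miRNAs together took a median of 0.00776% of a library (0.00551% to 0.0144%), and the 3 NF-κB-induced miRNAs 0.125% (0.0596% to 0.351%). In bulk RNA, fewer leukocytes and less of a miRNA per leukocyte cannot be told apart. The spread over the 15 libraries, as a coefficient of variation, was 20.0% for miR-146b-5p, the smallest of the 8, against a median of 31.5% for the 351 miRNAs tested. It was 44.9% for miR-146a-5p and 62.0% for miR-155-5p.

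**Figure D1:**
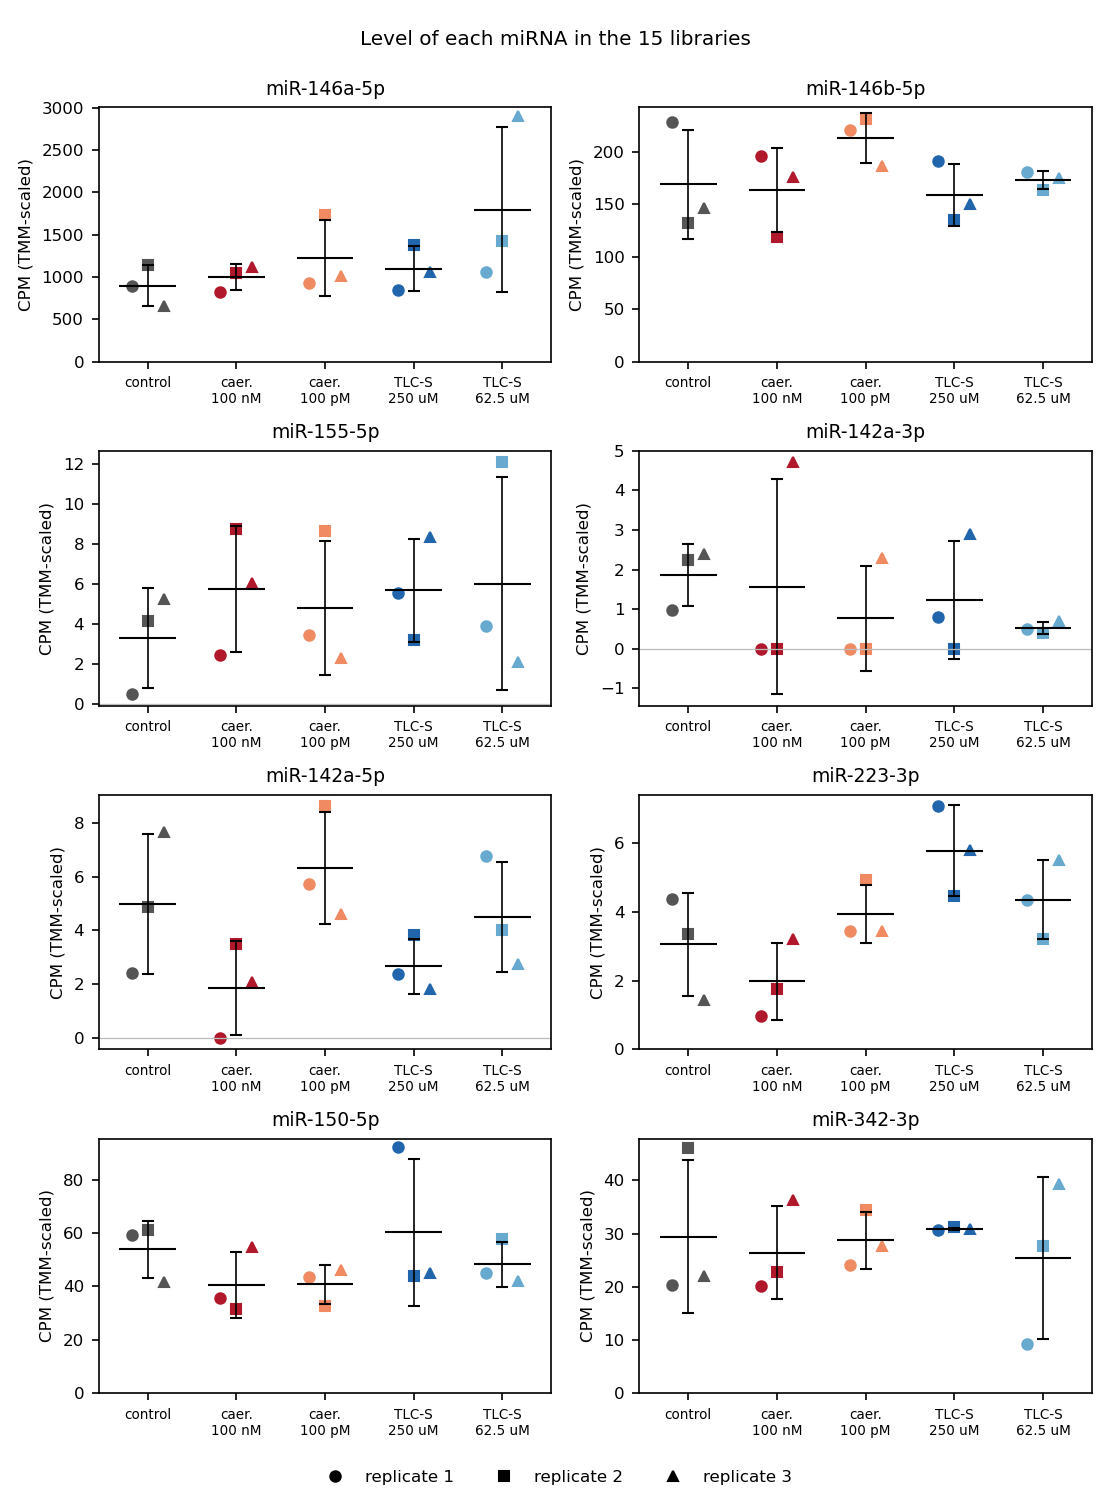
Level of each of the 8 miRNAs (CPM, linear axis, a separate scale in each panel) in the 15 libraries, by group. Markers are single libraries, with shape giving the replicate number, horizontal lines are group means and bars are SD. The label "caer." is caerulein, and the SD bars of miR-142a-3p reach below 0 because several of its libraries hold no count. miR-146a-5p in TLC-S 62.5 uM replicate 3, at 2895 CPM, is the highest value of its panel.

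None of the 7 members that could be tested passed an adjusted p of 0.05 in edgeR's quasi-likelihood test against control in any treated group, nor in DESeq2 or limma. Of all 351 tested miRNAs, edgeR called 0% with caerulein at 100 nM, 0% with caerulein at 100 pM, 0% with TLC-S at 250 uM and 0.57% with TLC-S at 62.5 uM. At an unadjusted p under 0.05, 1 member passed with caerulein at 100 nM (miR-142a-5p, lower) beside 3.42% of all tested miRNAs, 0 with caerulein at 100 pM beside 6.84%, 0 with TLC-S at 250 uM beside 1.14%, and 1 with TLC-S at 62.5 uM (miR-146a-5p, higher) beside 7.41%. In edgeR's F test over all groups, miR-146a-5p had an unadjusted p of 0.0344 and an adjusted p of 0.548, beside 7.41% of all tested miRNAs under 0.05 unadjusted and 0.855% adjusted. With 7 members, 1 is the smallest count above 0, and it is not read as a departure from these shares.

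Among the NF-κB-induced miRNAs, miR-146a-5p, the feedback inhibitor of Toll-like receptor signalling, had the largest difference relative to its error. Control libraries held 894, 1142 and 659 CPM in replicates 1, 2 and 3. Acini given TLC-S at 62.5 uM held 1062, 1427 and 2895 CPM. The ranges overlapped, because replicate 1 of the treated group lay below replicate 2 of the control, and the treated group's mean of 1795 ± 970 CPM (SD, n = 3) rested on replicate 3. The log2 difference was 1.00 (SE 0.32, 95% interval 0.33 to 1.66), with an unadjusted p of 0.00485 and an adjusted p of 0.229 in edgeR. Over the 25 alternative settings the difference stayed above 0, from 0.42 to 1.30, and the adjusted p ran from 0.0323 to 0.749. Without replicate 3 of TLC-S 62.5 uM the log2 difference was 0.42 (edgeR adjusted p = 0.749), and without control replicate 3 it was 0.83 (edgeR adjusted p = 0.655). Taken within each series of label codes, treated over control gave log2 ratios of 0.25, 0.32 and 2.14. The call was made in 1 setting, with no filter on low counts, where the log2 difference was 1.01 and the edgeR adjusted p was 0.0323.

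Shares of cell-type markers were uneven among the same 6 libraries. The acinar share was 27.2%, 33.9% and 58.2% in control replicates 1, 2 and 3 and 36.3%, 36.4% and 33.9% with TLC-S at 62.5 uM. The islet share was 14.4%, 12.5% and 5.86% in control and 8.75%, 11.6% and 14.9% with TLC-S at 62.5 uM. The replicate 3 libraries thus differed in both shares, where the acinar share of control replicate 3 was mostly miR-148a-3p. Taken singly, 8 of 8 acinar markers had a negative log2 difference with TLC-S at 62.5 uM (median -0.51), of which 3 passed an unadjusted p of 0.05, 2 did not overlap control and 0 were called. Both arms of miR-126a, the endothelial markers, were negative too (median -0.50, 1 of 2 unadjusted, 0 called). The acinar markers are also paired arms, and arms of the same hairpin are not independent markers. Of all 351 tested miRNAs, 180 were negative, 2.85% were lower and passed unadjusted, and 5.98% lay below control without overlap. The part of these markers in the miR-146a-5p difference was not tested. The summed share of the 5 leukocyte miRNAs overlapped between the groups, at 0.00551% to 0.0139% in control and 0.00684% to 0.0103% with TLC-S at 62.5 uM.

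In the other treated groups miR-146a-5p lay nearer to control. It was at 823, 1048 and 1123 CPM with caerulein at 100 nM (log2 difference 0.15, SE 0.32) and at 928, 1734 and 1009 CPM with caerulein at 100 pM (log2 difference 0.45, SE 0.32). With TLC-S at 250 uM it was at 846, 1375 and 1064 CPM (log2 difference 0.29, SE 0.32). All 3 ranges overlapped the control, and the edgeR adjusted p-values were 0.984, 0.942 and 0.999. The caerulein 100 pM difference rested on replicate 2, without which it was 0.05. Between the TLC-S doses, the log2 difference of 250 uM from 62.5 uM was -0.71 (SE 0.32), with an unadjusted p of 0.0360 and an adjusted p of 0.467 in edgeR, where 1.14% of all tested miRNAs were called and 8.83% passed unadjusted. Without replicate 3 of TLC-S 62.5 uM that difference was -0.12.

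miR-146b-5p, which shares the seed of miR-146a-5p, showed no such pattern. It was at 228, 132 and 146 CPM in control and at 181, 164 and 175 CPM with TLC-S at 62.5 uM, so that all 3 treated libraries lay inside the control range (log2 difference 0.04, SE 0.26, 95% interval -0.51 to 0.58). With caerulein at 100 nM it was at 195, 119 and 176 CPM (log2 difference -0.03), with caerulein at 100 pM at 221, 231 and 186 CPM (log2 difference 0.34) and with TLC-S at 250 uM at 191, 135 and 150 CPM (log2 difference -0.09). The caerulein 100 pM libraries all lay above those of TLC-S at 62.5 uM, a separation that 9.12% of all tested miRNAs showed in the same direction. It held in TMM-scaled CPM only: in the deposited RPM the groups overlapped, at 148 to 221 and 178 to 200. The log2 difference of these 2 groups was 0.30 (SE 0.27, edgeR adjusted p = 0.695), in a comparison where edgeR called 1.42% of all miRNAs.

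The ratio of miR-146b-5p to miR-146a-5p needs no scaling between libraries. miR-146b-5p was below miR-146a-5p in 15 of 15 libraries, with a median log2 ratio of -2.67 (-4.05 to -1.97). The mean log2 ratio was -2.42 ± 0.61 (SD, n = 3) in control and -3.24 ± 0.75 with TLC-S at 62.5 uM, a difference of -0.82 (exact permutation p = 0.2, two-sided, adjusted p = 0.75 over 12 ratio comparisons). It ran from -1.17 without control replicate 2 to -0.42 without replicate 3 of TLC-S 62.5 uM. With 3 libraries against 3 the smallest p this test can give is 0.1. The other differences from control were -0.21 with caerulein at 100 nM, -0.05 with caerulein at 100 pM and -0.36 with TLC-S at 250 uM. The ratio also varied with the replicate number: it ran from -2.55 to -1.97 in the 5 libraries numbered 1 and from -3.35 to -2.90 in the 5 numbered 2, which did not overlap, and from -4.05 to -2.17 in those numbered 3.

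**Figure D2:**
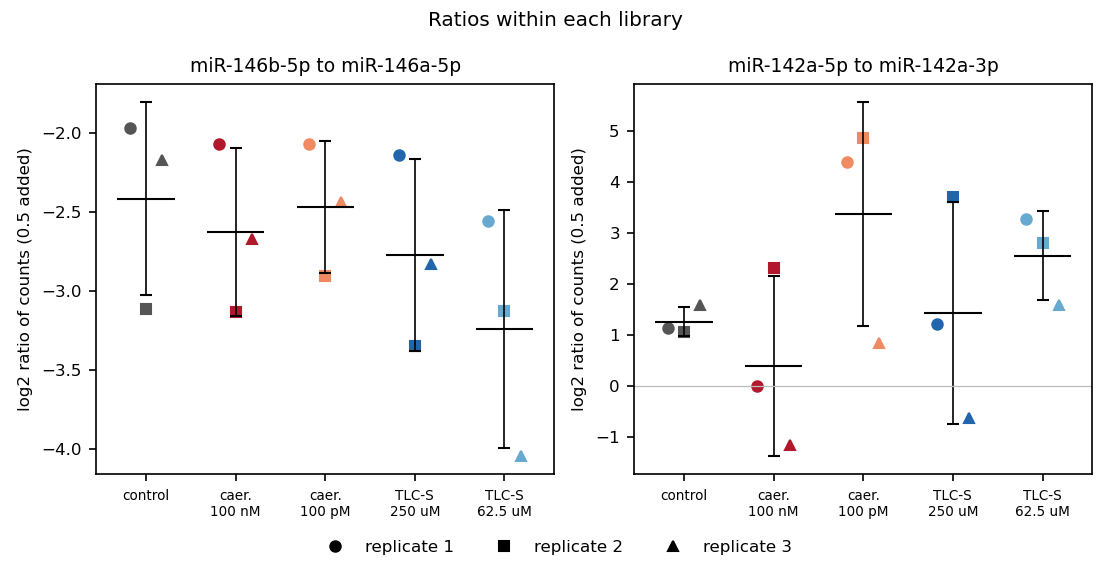
Within-library log2 ratios of counts (0.5 added to each count) for miR-146b-5p to miR-146a-5p and miR-142a-5p to miR-142a-3p, by group. Markers are libraries, with shape giving the replicate number, lines are group means and bars are SD (n = 3). Every miR-146b-5p to miR-146a-5p ratio is below 0, with libraries numbered 1 above those numbered 2.

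miR-155-5p, the NF-κB target that sustains inflammatory signalling, was rare, with 163 counts over the 15 libraries. Control libraries held 0.485, 4.11 and 5.26 CPM, from 1, 11 and 11 counts. Acini given caerulein at 100 nM held 2.45, 8.75 and 6.03 CPM and those given TLC-S at 62.5 uM held 3.86, 12.1 and 2.07 CPM. All 4 treated groups had a positive log2 difference (0.65, 0.59, 0.81 and 0.90), but each SE was between 0.73 and 0.78 and each range overlapped the control. The 4 comparisons share the control libraries, among them replicate 1 with its single count. Leaving out 1 library at a time took the difference to between -0.14 and 1.37 for TLC-S at 62.5 uM and to between -0.20 and 1.05 for caerulein at 100 pM, so that neither direction was stable.

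Of the leukocyte miRNAs, both arms of miR-142a, the pan-haematopoietic marker, were near the detection limit. miR-142a-3p had 52 counts in all, was at 0 in 5 of 15 libraries and did not pass the filter on low counts, so it was not tested. Control libraries held 2, 6 and 5 counts. Caerulein 100 nM libraries held 0, 0 and 25 counts, caerulein 100 pM libraries 0, 0 and 2, TLC-S 250 uM libraries 1, 0 and 8, and TLC-S 62.5 uM libraries 1 each. In CPM the TLC-S 62.5 uM libraries (0.402 to 0.689) lay below those of control (0.969 to 2.39), from group sums of 3 and 13 counts. Of the tested miRNAs, to which miR-142a-3p does not belong, 5.98% lay below control without overlap. The count of 25 came from the deepest library and equals 4.71 CPM. The libraries numbered 3 held 41 of the 52 counts.

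miR-142a-5p passed the filter, with 117 counts over the 15 libraries. It was at 2.42, 4.86 and 7.65 CPM in control (5, 13 and 16 counts) and at 0, 3.50 and 2.07 CPM with caerulein at 100 nM (0, 2 and 11 counts). The groups overlapped, and the group sums were 34 counts (exact 95% Poisson interval 23.5 to 47.5) and 13 counts (6.92 to 22.2). The log2 difference was -1.63 (SE 0.78, 95% interval -3.23 to -0.03), with an unadjusted p of 0.0462 and an adjusted p of 0.984 in edgeR. Without caerulein 100 nM replicate 1, which held no count, it was -1.02, and without control replicate 3 it was -1.19. Over all settings it ran from -2.39 to -0.30, the smallest on the log2 scale of RPM with 10 added, which compresses differences of rare miRNAs. Without molecular tags on the reads, such intervals and limits account for counting error alone.

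With caerulein at 100 pM miR-142a-5p was at 5.74, 8.62 and 4.60 CPM, above all 3 libraries of the 100 nM dose. Against 100 pM the 100 nM dose had a log2 difference of -2.0 (SE 0.79), with an unadjusted p of 0.0183 and an adjusted p of 0.986 in edgeR. It ran from -2.74 to -0.37 over the settings, again smallest with 10 added to RPM, and was -1.36 without caerulein 100 nM replicate 1. miR-223-3p, the granulocyte and monocyte miRNA, was separated in the same direction, at 0.980, 1.75 and 3.20 CPM with 100 nM and 3.44, 4.92 and 3.45 CPM with 100 pM (log2 difference -0.82, SE 0.70, edgeR adjusted p = 0.986). So 2 of the 7 tested members were lower at 100 nM without overlap in TMM-scaled CPM, beside 3.42% of all tested miRNAs. In the deposited RPM both overlapped: the highest 100 nM and lowest 100 pM values were 3.74 and 3.65 for miR-142a-5p. For miR-223-3p they were 3.34 and 2.74, from 2, 1 and 17 counts at 100 nM and 6, 8 and 3 at 100 pM. Between the caerulein doses edgeR called 0% of all miRNAs and 1.71% passed unadjusted.

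The other miR-142a-5p differences from control were 0.37 (SE 0.68) with caerulein at 100 pM, -0.93 (SE 0.74) with TLC-S at 250 uM and -0.12 (SE 0.68) with TLC-S at 62.5 uM. The 5p arm outnumbered the 3p arm in 12 of 15 libraries, with a median log2 ratio of 1.58 (-1.15 to 4.86) and sums of 117 and 52 counts. The 3p arm was at 0 in 5 libraries of the other 3 treated groups, where the 0.5 added to each count sets the ratio. With TLC-S at 62.5 uM, where no library was at 0, the ratio was above control by 1.30 (exact permutation p = 0.2, adjusted p = 0.75 over 12).

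miR-223-3p was at 4.36, 3.37 and 1.43 CPM in control and at 7.09, 4.45 and 5.79 CPM with TLC-S at 250 uM. The lowest treated library lay just above the highest control library, a separation that 3.7% of all tested miRNAs showed upward. The log2 difference was 0.89 (SE 0.63, 95% interval -0.40 to 2.19, edgeR adjusted p = 0.999), from group sums of 32 and 21 counts. The caerulein 100 nM libraries also lay below all 3 TLC-S 250 uM libraries (log2 difference -1.34, SE 0.66, edgeR adjusted p = 0.9998), a separation shown downward by 1.99% of all tested miRNAs, of which edgeR called 0%. Against control the remaining differences were -0.44 (SE 0.68) with caerulein at 100 nM, 0.37 (SE 0.67) with caerulein at 100 pM and 0.47 (SE 0.64) with TLC-S at 62.5 uM.

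The lymphocyte-rich miRNAs had enough counts for narrower intervals and no treated group lay apart from control. miR-150-5p was at 59.1, 60.9 and 41.6 CPM in control, at 35.8, 31.5 and 54.6 CPM with caerulein at 100 nM and at 43.6, 32.6 and 46.0 CPM with caerulein at 100 pM. It was at 92.1, 43.9 and 44.9 CPM with TLC-S at 250 uM, where replicate 1 held the highest level of the 15 libraries, and at 44.9, 57.9 and 42.0 CPM with TLC-S at 62.5 uM. The log2 differences were -0.37, -0.41, 0.15 and -0.16 in the order above, each with an SE of 0.32 to 0.33. All ranges overlapped the control.

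miR-342-3p was at 20.4, 46.0 and 22.0 CPM in control and at 9.17, 27.7 and 39.3 CPM with TLC-S at 62.5 uM. With TLC-S at 250 uM its 3 libraries lay within 30.7 to 31.2 CPM. Its log2 differences were -0.13, -0.04, 0.06 and -0.24 in the same order, each with an SE of 0.42. All 4 groups overlapped the control, and no direction was stable when libraries were left out.

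**Figure D3:**
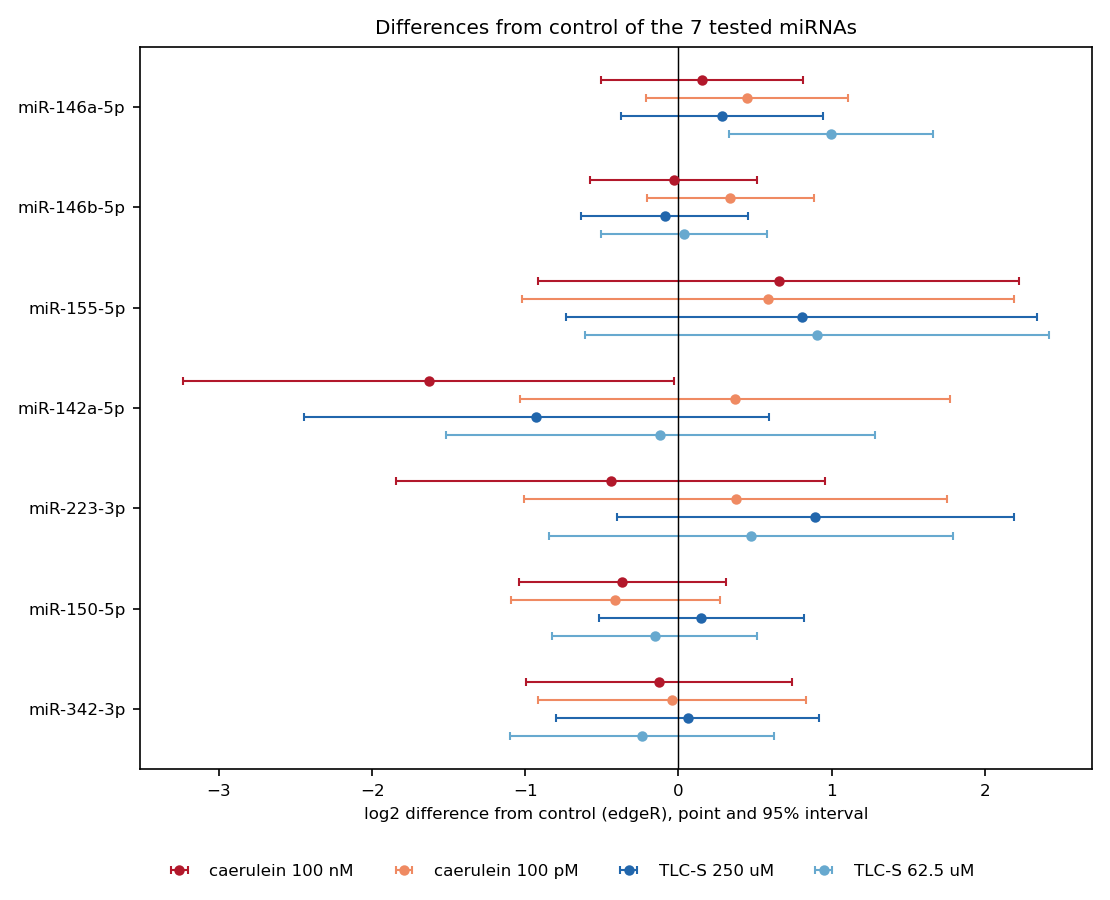
Log2 difference of each of the 7 tested miRNAs from control in the 4 treated groups, with 95% intervals from edgeR (n = 3 libraries per group). The interval of miR-146a-5p with TLC-S at 62.5 uM and that of miR-142a-5p with caerulein at 100 nM exclude 0 before adjustment; the adjusted p-values are 0.229 and 0.984.

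As groups, the NF-κB-induced miRNAs had positive log2 differences in 2, 3, 2 and 3 of 3 members, with medians of 0.15, 0.45, 0.29 and 0.90. The leukocyte miRNAs were positive in 0, 2, 3 and 1 of the 4 tested of 5, with medians of -0.40, 0.16, 0.10 and -0.14. Over all 351 tested miRNAs the medians were 0.03, 0.01, -0.03 and -0.01, and 52.7%, 51.3%, 45% and 48.7% were positive. These counts describe lists of a few miRNAs, of which 0 were called, and the 4 comparisons share 1 control group. With caerulein at 100 nM all 4 tested leukocyte miRNAs were below control. The endothelial markers, both arms of miR-126a, were too (median log2 difference -0.81, edgeR unadjusted p under 0.05 for 2 of 2, 0 called). Of all tested miRNAs, 2.28% were lower and passed unadjusted in that comparison. The endothelial share was 0.363% to 0.652% there and 0.626% to 0.839% in control. In the other treated groups both arms of miR-126a were below control as well, with medians of -0.33, -0.28 and -0.50. Leukocyte miRNAs were positive in 2, 3 and 1 of 4 in those groups, so the lists did not fall together in each. The part of the endothelial share in the leukocyte values was not tested.

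The ratio of miR-146a-5p to miR-142a-3p set the main NF-κB-induced miRNA against a leukocyte marker of the same library. Its median log2 value was 10.2. The ratio was above control by 1.15 with caerulein at 100 nM, 2.07 with caerulein at 100 pM and 1.21 with TLC-S at 250 uM. The denominator was 0 in 2 of 3 libraries of each caerulein dose and in 1 of 3 with TLC-S at 250 uM. The 0.5 added to each count therefore partly sets these differences. With TLC-S at 62.5 uM the ratio was 2.27 above control and all treated libraries lay above all controls (11.1 ± 0.48 against 8.79 ± 0.78, SD, n = 3), where the exact permutation p of 0.1 is the smallest possible (adjusted p = 0.75 over 12). The denominator was 1 count in each of those 3 treated libraries, so the size of this ratio is loosely fixed.

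The passenger arms were nearly absent. Over the 15 libraries there were 28 counts of miR-342-5p, 11 of miR-223-5p, 3 of miR-146b-3p, 2 of miR-155-3p, 1 of miR-146a-3p and 0 of miR-150-3p. None passed the filter on low counts.

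Other miRNAs of inflammation and of blood cells gave no call either. Of 16 further inflammation-related miRNAs, such as both arms of miR-21a, the CREB-responsive miR-132 and miR-212, and the let-7e, miR-99b and miR-125a cluster, 14 were tested and 0 were called in any comparison with control. Their log2 differences were positive in 8, 7, 6 and 5 of 14, with medians of 0.06, -0.05, -0.07 and -0.10. miR-21a-3p passed an unadjusted p of 0.05 with caerulein at 100 nM (log2 difference 2.18, SE 0.71, edgeR adjusted p = 0.432), with caerulein at 100 pM (1.55, SE 0.74, edgeR adjusted p = 0.722) and with TLC-S at 250 uM (1.58, SE 0.72, edgeR adjusted p = 0.999). The title of the study names it as over-expressed in acute pancreatitis, so it is not independent evidence on the list. With caerulein at 100 nM, miR-21a-3p held 2.94 to 25.6 CPM, which overlapped the control (1.45 to 5.26 CPM), and 1 library held 136 of the 149 counts. Its lowest values with caerulein at 100 pM (5.16 CPM) and TLC-S at 250 uM (4.72 CPM) also lay below the highest control. miR-31-5p was at 12.6, 20.9 and 16.7 CPM in control and at 43.5, 31.4 and 20.7 CPM with TLC-S at 62.5 uM, which overlapped by a narrow margin (log2 difference 0.93, SE 0.41, edgeR adjusted p = 0.648).

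Of 10 further blood-cell miRNAs, the miR-181 family of lymphocytes and thymus, the macrophage miR-511 and the erythroid miR-451a, miR-144 and miR-486a, 7 were tested. Their log2 differences were positive in 3, 2, 3 and 4 of 7, with medians of -0.09, -0.27, -0.13 and 0.08. 0 were called and 0 passed an unadjusted p of 0.05 against control. The erythrocyte markers took 0.00966% to 0.0143% of control libraries and 0.0126% to 0.0187% of TLC-S 62.5 uM libraries.

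Among 21 pairs of tested members, Pearson's r of log2 CPM over the 15 libraries reached 0.48 for miR-223-3p with miR-150-5p and 0.45 for miR-146a-5p with miR-223-3p, and was 0.01 for the miR-146 pair. By rank the closest pair was miR-146a-5p with miR-342-3p, with a Spearman's rho of 0.72 and a Pearson's r of 0.44. These r values are descriptions over libraries that share groups, depth and replicate series. The profile most like that of miR-146a-5p was miR-184-3p (r = 0.75), 1 of the 5 islet markers, followed by miR-1839-5p (r = 0.75). Both were picked for the highest r among all tested miRNAs outside the members, so their likeness is not separate evidence. miR-184-3p was at 130, 166 and 199 CPM in control and at 269, 248 and 441 CPM with TLC-S at 62.5 uM. Its log2 difference was 0.95 (SE 0.31, edgeR adjusted p = 0.229). The 5 islet markers did not rise together in that comparison: 3 were positive and 2 negative, with a median log2 difference of 0.07. The part of miR-184-3p in the miR-146a-5p difference was not tested.

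For the other members the highest r lay between 0.60 and 0.74. miR-146b-5p was most like miR-200c-5p (r = 0.64) and miR-1983 (r = 0.61), and miR-155-5p like miR-1968-5p (r = 0.65) and miR-674-3p (r = 0.64). miR-142a-5p was most like miR-221-5p (r = 0.60) and let-7e-3p (r = 0.58), and miR-223-3p like miR-27a-5p (r = 0.70) and miR-129-1-3p (r = 0.62). miR-150-5p was most like miR-497a-5p (r = 0.74) and miR-322-5p (r = 0.69), and miR-342-3p like miR-127-5p (r = 0.74) and miR-200b-5p (r = 0.66).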

How the data were processed

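Per the labels' protocols, total RNA of pancreatic acini was isolated with a mirVana kit and small RNA libraries were sequenced on an Illumina instrument. cutadapt and Bowtie with the builds GRCm38 and mm10 were used, per the submitters' processing notes (versions and counting tool not given in the sources used here). Estimated counts (expected counts) per mature miRNA, as the authors deposited them, served for all main tests; they are within 0.5 of sums over precursors in a second deposited table of estimated counts. Of 114 member values above 0 per precursor, 13 were fractional (tolerance 1e-06), so reads may have been divided between miRNAs, which was not tested. The RPM values the authors deposited match the counts per precursor, scaled to their own total, within 0.0313; they differ more from the rounded mature counts, and served for alternatives only.

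Groups came from sample titles. 1 model with a mean per group was fitted to all 15 libraries with edgeR 4.0.16 (R 4.3.3) on the deposited counts, with TMM scaling and the quasi-likelihood test, after filterByExpr at a minimum count of 10 and a total of 15. It tested 351 miRNAs with 10 residual degrees of freedom, at a biological coefficient of variation of 0.285, with Benjamini-Hochberg adjustment over all 351 and a threshold of 0.05. The SE was derived from the F statistic. Ratios used counts with 0.5 added and a two-sided exact permutation test (scipy 1.17.1). The scripts were tested on simulated data.

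Alternatives were DESeq2 1.42.0, limma 3.58.1 on log2 RPM with pseudocounts of 1 and 10, other scalings and filters, the 2 groups alone, a replicate block and each library left out. The members, lists, comparisons and tests were chosen with earlier results of these data known. The rule for named miRNAs took the 8 members and their passenger arms, list miRNAs with an unadjusted p under 0.05 against control, and the 2 tested miRNAs most like each tested member by Pearson's r of log2 CPM (prior count 2). Differences between treated groups were named at an unadjusted p under 0.05. Those of miR-223-3p and miR-146b-5p, and the endothelial, miR-148a-3p and miR-184-3p values, were named after they were seen. Replicate numbers follow accession order; each coincides with a series of label codes that spans all groups, which the labels do not tie to a shared preparation, day or batch. Libraries of a group differed beyond the sampling noise of their counts, with chi-square at least 54.9 times its degrees of freedom.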

Additional observations from a re-analysis of the deposited data

How the results depend on the processing

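Depth limits these results: 4 of the 8 miRNAs averaged under 10 CPM, where a library holds a few counts. No member was called with any library left out. The only setting that called a member was that with no filter on low counts, which called 1, miR-146a-5p with TLC-S at 62.5 uM (log2 difference 1.01, edgeR adjusted p = 0.0323). Of 279 log2 differences under settings other than leaving out a library, 270 kept their direction and call, and of 450 with a library left out, 428 did. Without TMM factors the median of all miRNAs moved by -0.24 for caerulein 100 pM against control and by 0.10 for TLC-S 62.5 uM against control. The cause of the reversals was not tested.

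miR-146b-5p with caerulein at 100 nM, at -0.03, became 0.000904 with library totals, 0.0025 with the 2 groups alone, 0.050 with limma at pseudocount 1 and 0.044 at pseudocount 10. miR-142a-5p with TLC-S at 62.5 uM, at -0.12, became 0.054 with library totals, 0.038 with limma at pseudocount 1 and 0.014 at pseudocount 10. miR-342-3p with caerulein at 100 pM, at -0.04, became 0.0033 with the replicate block. The ratio of miR-142a-5p to miR-142a-3p with TLC-S at 250 uM became -0.093 at pseudocount 1.

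Leaving out 1 library at a time changed the sign of these differences from control. miR-146a-5p with caerulein at 100 nM ran from -0.013 to 0.39. miR-146b-5p ran from -0.16 to 0.27 with caerulein at 100 nM, from -0.22 to 0.22 with TLC-S at 250 uM and from -0.11 to 0.34 with TLC-S at 62.5 uM. miR-155-5p ran from -0.20 to 1.05 with caerulein at 100 pM and from -0.14 to 1.37 with TLC-S at 62.5 uM. miR-142a-5p with TLC-S at 62.5 uM ran from -0.51 to 0.32 and miR-150-5p with TLC-S at 250 uM from -0.22 to 0.35. miR-342-3p ran from -0.50 to 0.38 with caerulein at 100 nM, from -0.26 to 0.43 with caerulein at 100 pM, from -0.10 to 0.57 with TLC-S at 250 uM and from -0.72 to 0.27 with TLC-S at 62.5 uM. The log2 ratio of miR-142a-5p to miR-142a-3p with TLC-S at 250 uM ran from -0.96 to 1.20, and that of miR-146b-5p to miR-146a-5p from -0.56 to 0.044 with caerulein at 100 nM and from -0.40 to 0.17 with caerulein at 100 pM.

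Same-numbered libraries of different groups had a mean correlation of deviations of 0.128 (-0.124 to 0.397 over 30 pairs), with 15 of 30 pairs over 0.1, against -0.0637 for differently numbered libraries, with 7 of 60 over 0.1. Same-numbered libraries thus deviated together more often, but not in every pair, and the main model did not treat them as pairs. Deviations cancel within a group, so the mean for differently numbered libraries is tied to that for same-numbered libraries. It is not a separate comparison. With the replicate block miR-146a-5p with TLC-S at 62.5 uM had a log2 difference of 0.95 (edgeR adjusted p = 0.0839), and no member was called.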
